A study of Equus caballus with 15 samples.

Results

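The interleukin-1 (IL-1) family genes described here were 10 genes chosen by their symbol, namely the ligands IL1A, IL1B, IL18 and IL33, the receptor antagonist IL1RN, the receptor chains IL1R1, IL1RAP and IL18R1, the decoy receptor IL1R2 and the IL-18 binding protein IL18BP. All 10 were among the 16932 genes listed, and 9 of them reached a mean of 1 CPM (read counts scaled to a common library total) and were tested as part of 11628 genes. RNA was sequenced from equine macrophages that had been differentiated from blood mononuclear cells of 2 horses over 5 days with M-CSF at 30 ng/ml. Each of 5 conditions had 3 libraries. No IL-1ß was given to untreated macrophages, and the other 4 conditions received the protein at 10 ng/ml. Of these 4, 3 also received an orthobiologic therapy (OT), a joint treatment made from an animal's own cells or blood, as 25% of the medium. The OTs were bone marrow mesenchymal stromal cell conditioned medium (MSC-CM), lysed platelet rich plasma (PRP) and autologous conditioned serum (ACS). Each OT came from 3 donor horses other than the macrophage donors, so its 3 libraries replicate the product, whereas the untreated and IL-1ß libraries are described in the paper as technical replicates. P-values therefore measure only the spread between these libraries, and how the 2 macrophage donors were divided over the libraries is not given in the sources used here. All donors were 2 to 5 years old. Exposure lasted 24 h, but the sources differ on whether the cells were lysed at once or after a further day in fresh medium.

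IL-1α and IL-1ß bind the receptor IL-1R1, which then recruits the accessory chain IL-1RAP and signals to NF-κB. The pathway is restrained outside the cell by IL-1Ra, the product of IL1RN, which occupies IL-1R1 without signaling, and by IL-1R2, a decoy that captures ligand but cannot signal. IL-18 is a relative that drives interferon-γ production through IL-18Rα, encoded by IL18R1, and is held back by IL-18BP, a soluble protein that binds it with high affinity. In the joint, macrophages are a source of both the ligands and their antagonists, and the balance between them is the rationale for therapies that supply IL-1Ra.

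Of the 10 genes, 6 lay on chromosome 15 of EquCab3.0, in 2 groups. IL18R1 (7467505 to 7507581), IL1R1 (7683172 to 7758565) and IL1R2 (7832897 to 7860737) followed each other, with 74.3 kb and 0 listed genes between the signaling receptor and the decoy. IL1A (16360700 to 16369813), IL1B (16418738 to 16444800) and IL1RN (16702274 to 16716417) lay together, with 48.9 kb between the 2 ligands. IL1RAP was on chromosome 19 (30428039 to 30512841), and IL33 on chromosome 23 (26871150 to 26882568). IL18 (21165211 to 21175221) and IL18BP (73711334 to 73717434) were both on chromosome 7. The span annotated for IL18BP overlapped that of NUMA1, a mitotic spindle gene, by 3532 bp, and the strand setting of the read counting is not given in the sources used here, so reads in this stretch may have come from either gene.

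A pair of libraries stood apart from the rest, and they matter for several of the values below. On the first principal component of all tested genes, which held 55.4% of the variance, IL-1ß replicate 3 scored 103 and PRP replicate 1 scored 51.7, while the other 13 libraries lay between -26.6 and 20.7. The libraries held 28410734 to 47894071 reads counted on genes, so 1 CPM was 28.4 reads in the shallowest. Of the 13 macrophage markers considered, 12 were listed and all of these were detected, with summed levels of 2811 to 4841 CPM with PRP and 4324 to 7210 CPM in the other conditions. Among them CD14, the lipopolysaccharide co-receptor of monocytes, was at 1.38 to 4.32 CPM only. T cell markers summed to 974 to 1931 CPM and NK cell markers to 228 to 1082 CPM, so RNA of lymphocyte marker genes was present as well. In such bulk RNA, fewer cells of a type and less RNA per cell cannot be told apart.

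The comparisons asked what IL-1ß and each OT did to these genes. Among the 9 tested members 3 differences passed the threshold, an adjusted p of at most 0.05 with a change of at least 2-fold, by limma on log2(CPM + 1) with Benjamini-Hochberg adjustment. The decoy receptor IL1R2 was higher with ACS than with IL-1ß alone and higher with ACS than with MSC-CM. IL18BP was higher with PRP than with MSC-CM. No member passed with IL-1ß against untreated macrophages, where 0.292% of all genes tested were called, with MSC-CM against IL-1ß (0%) or with PRP against IL-1ß (3.09%). The background was 2.21% with ACS against IL-1ß, 1.23% with ACS against MSC-CM and 2.61% with PRP against MSC-CM, and 1 of the 9 members was called in each of these. None was called in PRP against ACS (0.0946%) or in MSC-CM, PRP or ACS against untreated macrophages (0.662%, 1.6% and 0.37%). For these 7 comparisons edgeR on recovered reads called no member either, and DESeq2 called IL18BP with MSC-CM (among 171 of 12333 genes) and IL1B with PRP (among 320 of 13316), each against untreated macrophages. At an unadjusted p of at most 0.05 and 2-fold, limma had IL1B with MSC-CM against IL-1ß (0.361% of all genes) and none with IL-1ß against untreated macrophages (1.57%), with PRP against IL-1ß (4.68%), with PRP against ACS (0.826%) or with MSC-CM against untreated macrophages (1.8%). At the same threshold IL1B and IL1RAP differed between PRP and untreated macrophages (2.61%), and IL1R2 and IL18 between ACS and untreated macrophages (1.26%). All contrasts came from a single model of the 15 libraries, and those with the same reference group share its libraries.

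**Figure D1:**
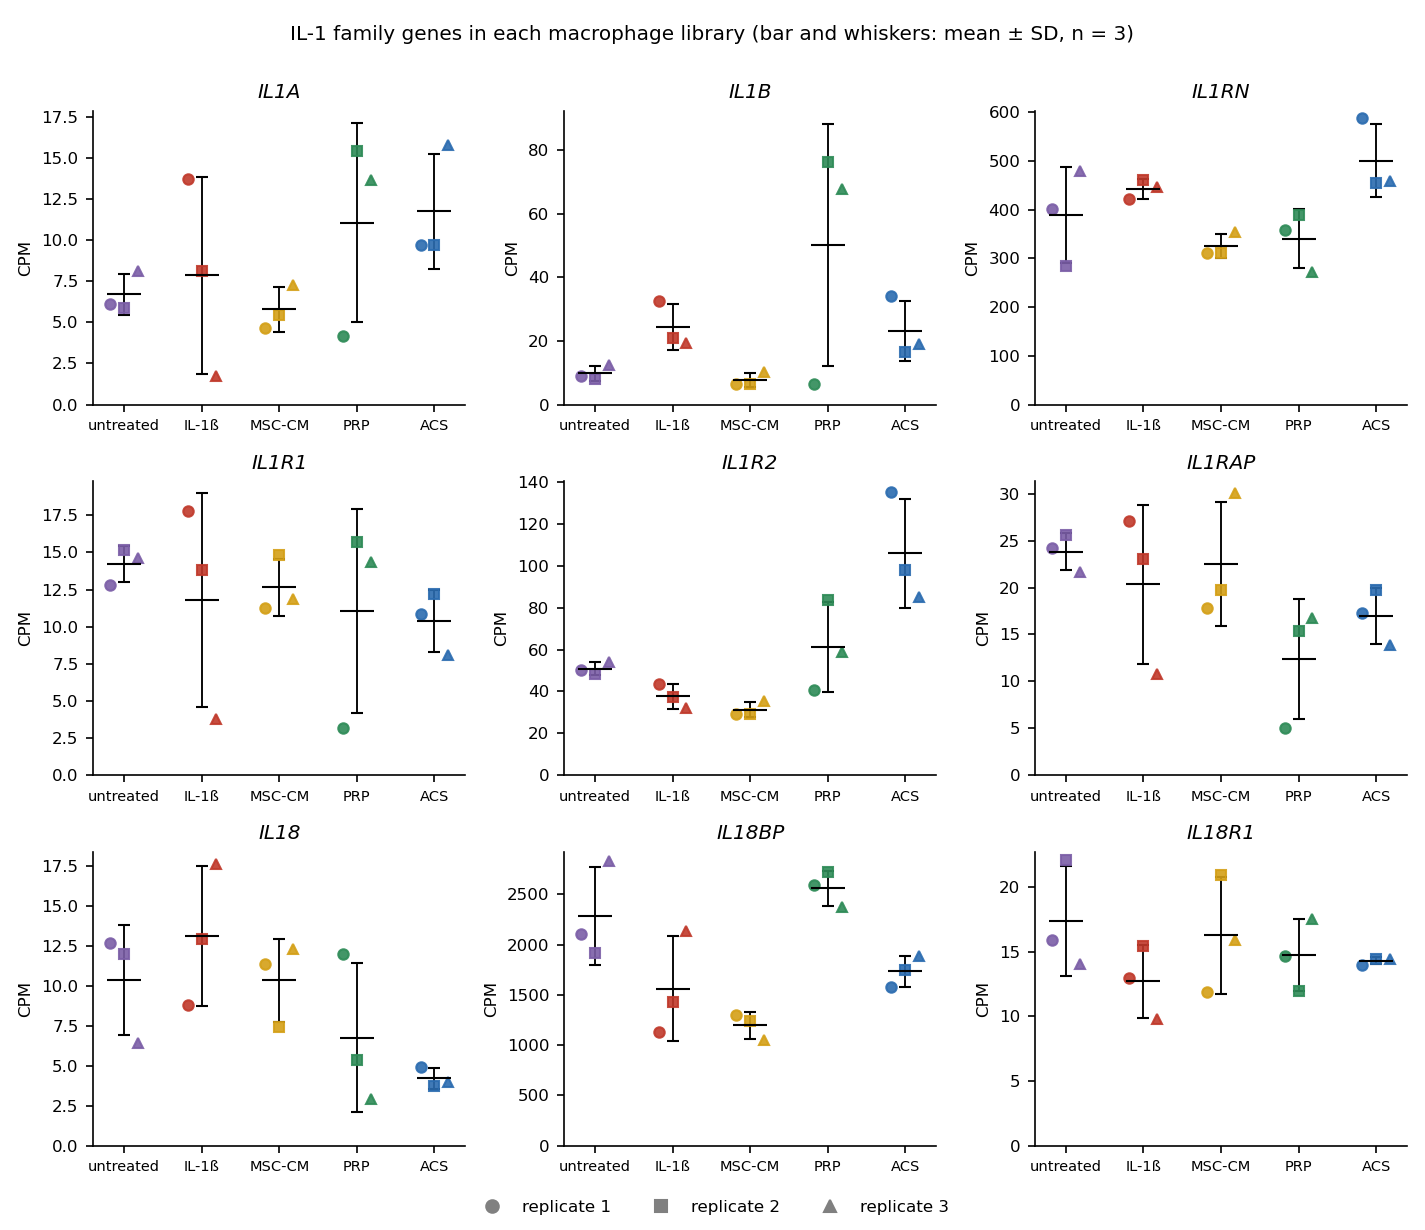
Level of the 9 tested genes in CPM (linear axes) in each library by condition, with circles, squares and triangles for replicates 1, 2 and 3 and black bars for the mean ± SD. ACS libraries carry no number in their labels and are numbered by column order. The 3 ACS libraries lie above all others for IL1R2, while the PRP libraries are split for IL1B, with replicate 1 at 6.53 CPM and the others at 76.4 and 67.9 CPM.

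IL1B, which encodes the ligand that was also added to the cultures as protein, was at 8.96, 8.19 and 12.6 CPM in untreated macrophages and at 32.7, 21.0 and 19.5 CPM with IL-1ß. The IL-1ß libraries all exceeded the untreated ones. The means were 9.92 ± 2.35 and 24.4 ± 7.27 CPM (SD, n = 3), a 2.46-fold difference, with a difference of 1.203 on the log2 scale (SE 0.667, limma Benjamini-Hochberg adjusted p = 0.458). Without the 2 libraries that stood apart it was 1.34 and passed the threshold (limma adjusted p = 0.0343).

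With MSC-CM, IL1B was at 6.43, 6.61 and 10.1 CPM. These libraries all lay below the IL-1ß libraries and overlapped with the untreated range. Their mean of 7.72 ± 2.09 CPM was 3.16-fold below that with IL-1ß, but no gene at all was called in this comparison (log2 fold change -1.53, limma adjusted p = 0.705 for IL1B). At an unadjusted p of at most 0.05 and 2-fold, limma had 42 genes there. At the adjusted threshold edgeR called 0 and DESeq2 called 2. With ACS the gene was at 34.1, 16.6 and 19.0 CPM, a mean of 23.2 ± 9.49 CPM. The ACS libraries overlapped with the IL-1ß libraries and lay above both the untreated and the MSC-CM libraries (log2 fold change 1.43 against MSC-CM, limma adjusted p = 0.373).

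PRP gave the widest spread of IL1B. Replicate 1 was at 6.53 CPM, within the MSC-CM range and below all untreated libraries, and replicates 2 and 3 were at 76.4 and 67.9 CPM, above every other library of the series. The mean was 50.3 ± 38.1 CPM, and the log2 fold change was 0.47 against IL-1ß (limma adjusted p = 0.75) and 1.998 against MSC-CM (limma adjusted p = 0.135). Against IL-1ß, which library was left out decided the direction and the call. Against MSC-CM the value stayed above 0, at 1.41 to 3.09, and with all libraries IL1B was called by edgeR (2.73, adjusted p = 0.029) and by DESeq2 (2.75) on recovered reads. Without PRP replicate 1, the limma value was 1.56 against IL-1ß (limma adjusted p = 0.0129) and 3.09 against MSC-CM (limma adjusted p = 0.000273). Without PRP replicate 2 or replicate 3, the value against IL-1ß was -0.12 or -0.04. Since the replicates were 3 donors' products, donor, product and library cannot be told apart here.

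IL1A, whose product is active without cleavage and is released from damaged cells, followed the same split with PRP, at 4.16, 15.4 and 13.7 CPM. With IL-1ß it was at 13.8, 8.11 and 1.73 CPM, so that the IL-1ß libraries held both a high and the lowest value of the series. Untreated macrophages were at 6.13, 5.86 and 8.15 CPM and those with MSC-CM at 4.64, 5.43 and 7.30 CPM. The 3 ACS libraries, at 9.74, 9.75 and 15.8 CPM, lay above all libraries of both these groups (log2 fold change 0.90 against MSC-CM, limma adjusted p = 0.534). No comparison of IL1A passed with all libraries. The low values lay in the 2 libraries that stood apart, and Pearson's r of IL1A with the first principal component was -0.837 over the 15 libraries. The ratio of IL1B to IL1A within a library was 1.40 to 1.55 in untreated macrophages and 1.22 to 1.39 with MSC-CM. It was 2.38, 2.59 and 11.3 with IL-1ß and 1.57, 4.95 and 4.97 with PRP, all above both of these groups, while ACS spanned 1.20 to 3.50 and overlapped with them.

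IL1RN, which encodes the receptor antagonist that ACS preparations are meant to be rich in, ranged from 273 to 588 CPM over the series. It was at 402, 285 and 481 CPM in untreated macrophages, at 421, 460 and 447 CPM with IL-1ß, and at 312, 312 and 354 CPM with MSC-CM. With PRP it was at 358, 390 and 273 CPM, and with ACS at 588, 455 and 460 CPM. The MSC-CM and the PRP libraries all lay below the IL-1ß libraries, and the ACS libraries all lay above both. Against IL-1ß the log2 fold change was -0.44 with MSC-CM (limma adjusted p = 0.705) and -0.39 with PRP (limma adjusted p = 0.296). Between ACS and MSC-CM it was 0.61 (SE 0.186, limma adjusted p = 0.133). None of these differences passed the test. The 2 libraries that stood apart were within the range of the others for this gene (r with the first principal component 0.0974).

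The ratio of antagonist to ligand RNA within a library does not depend on library size, although its absolute value depends on gene length. The IL1RN to IL1B ratio was 44.9, 34.9 and 38.2 in untreated macrophages and 12.9, 22.0 and 22.95 with IL-1ß. It was 48.4, 47.2 and 34.9 with MSC-CM, again above every IL-1ß library. ACS gave 17.2, 27.3 and 24.2, and PRP gave 54.8 in replicate 1 but 5.11 and 4.02 in replicates 2 and 3. The geometric mean was 2.31-fold higher with MSC-CM than with IL-1ß, and IL-1ß lay 2.10-fold below untreated macrophages. For both the exact permutation test gave p = 0.1 (two-sided), the smallest that 3 against 3 libraries allow, and 0.211 after adjustment over 40 ratio tests.

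**Figure D2:**
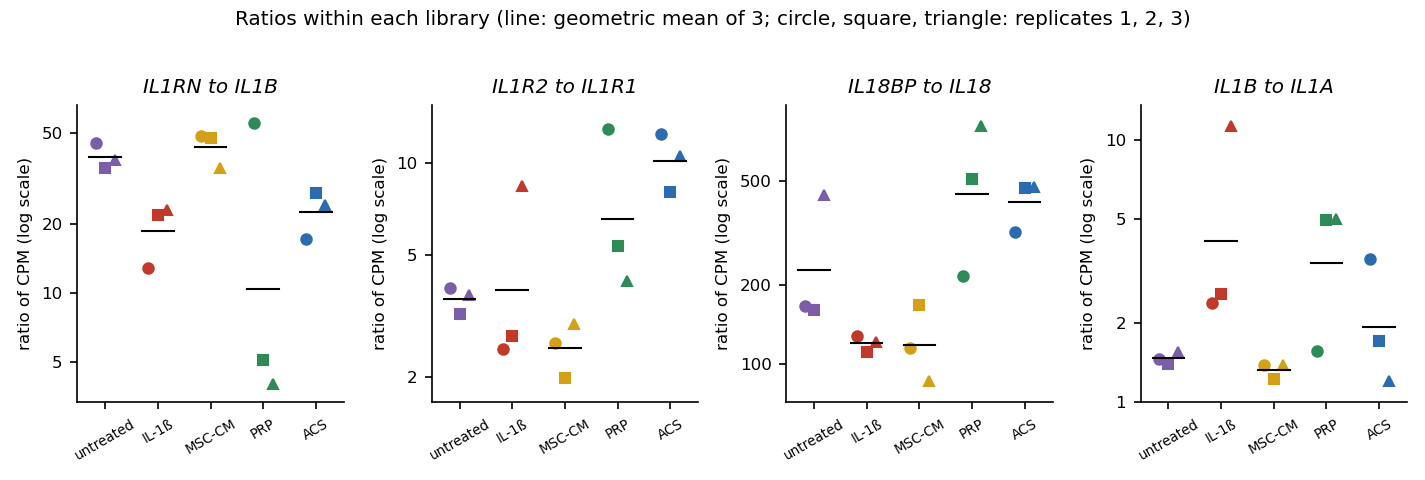
Ratios of CPM within each library (log axes) for 4 pairs of genes by condition, with circles, squares and triangles for replicates 1, 2 and 3 and a line at the geometric mean. ACS libraries carry no number in their labels and are numbered by column order. The IL1RN to IL1B ratio of PRP spans 4.02 to 54.8, and the IL18BP to IL18 ratio is above 216 in all PRP and ACS libraries and at most 168 in all IL-1ß and MSC-CM libraries.

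IL1R2, the decoy receptor, was called in 2 comparisons, both with ACS. It was at 135, 97.9 and 85.0 CPM with ACS, against 43.7, 37.4 and 31.9 CPM with IL-1ß alone. Every ACS library lay above every other library of the series. The means of 106 ± 26.1 and 37.7 ± 5.90 CPM (SD, n = 3) differed 2.81-fold, a log2 fold change of 1.45 (SE 0.237, limma Benjamini-Hochberg adjusted p = 0.00575). On omitting any single one of the 6 libraries the value lay between 1.26 and 1.60, and IL1R2 was called in all 6 fits. With only the libraries of the 2 groups in the model the call was lost (limma adjusted p = 0.0653).

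The lowest IL1R2 levels were those with MSC-CM, at 29.1, 29.3 and 35.2 CPM, which overlapped with the IL-1ß range and lay below all untreated libraries (50.1, 48.4 and 54.2 CPM). ACS was 3.4-fold above MSC-CM, a log2 fold change of 1.71 (SE 0.237, limma adjusted p = 0.00298). This call also stood in all 6 fits that omitted a single library, at 1.52 to 1.85. Against untreated macrophages, ACS was 2.08-fold higher with no overlap, a log2 fold change of 1.02 (limma adjusted p = 0.106). PRP libraries were at 40.7, 83.8 and 58.8 CPM, above all MSC-CM libraries, below all ACS libraries and overlapping with IL-1ß. Against MSC-CM the log2 fold change of PRP was 0.89 (limma adjusted p = 0.0521), and the difference was called by edgeR (1.02, adjusted p = 0.031) and DESeq2 (1.04, adjusted p = 0.00109) on recovered reads. The order of means was thus ACS, PRP, untreated, IL-1ß and MSC-CM, of which PRP overlapped with untreated and IL-1ß, and IL-1ß with MSC-CM.

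IL1R2 is also expressed by neutrophils, so the markers of that cell type are given beside it. Of 11 neutrophil markers 4 were listed, and 3 of these had a mean under 1 CPM, among them the granule enzyme MPO (at most 3.81 CPM in any library). The remaining one, CSF3R, the G-CSF receptor, was at 530 to 759 CPM with ACS and 485 to 545 CPM with PRP, against 307 to 390 CPM with IL-1ß, 268 to 429 CPM with MSC-CM and 323 to 389 CPM in untreated macrophages. With ACS it was thus above the IL-1ß and MSC-CM libraries, as IL1R2 was, while the untreated and IL-1ß libraries overlapped for CSF3R and not for IL1R2. Its part in the result was not tested.

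IL1R1, the signaling receptor, and IL1RAP, its accessory chain, showed no difference between conditions that passed the test. IL1R1 was at 12.8, 15.2 and 14.6 CPM in untreated macrophages and at 17.8, 13.8 and 3.80 CPM with IL-1ß. With PRP it was at 3.17, 15.7 and 14.3 CPM. The 2 low values are again those of the libraries that stood apart, and the remaining libraries of all 5 conditions lay between 8.10 and 17.8 CPM.

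IL1RAP had its lowest levels in PRP, at 5.05, 15.4 and 16.8 CPM, all below the untreated libraries at 24.2, 25.6 and 21.7 CPM and below the MSC-CM libraries at 17.8, 19.8 and 30.1 CPM. The log2 fold change was -1.04 against untreated macrophages (limma adjusted p = 0.251) and -0.93 against MSC-CM (limma adjusted p = 0.284). On omitting single libraries these values were -1.32 to -0.54 and -1.21 to -0.43. IL-1ß libraries ranged from 10.8 to 27.2 CPM and ACS libraries from 13.8 to 19.7 CPM. IL1R1 and IL1RAP were correlated over the 15 libraries (Pearson's r = 0.848, a description across libraries that share conditions), and both were low in the 2 libraries that stood apart.

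The decoy and the signaling receptor were also set against each other within each library. The IL1R2 to IL1R1 ratio was 12.4, 8.03 and 10.5 with ACS and 2.58, 1.98 and 2.98 with MSC-CM. Untreated libraries were between 3.19 and 3.90, below all PRP and ACS libraries. IL-1ß replicate 3 reached 8.39 against 2.45 and 2.72 in the other IL-1ß libraries, and PRP replicate 1 reached 12.9 against 5.34 and 4.11. In these 2 libraries IL1R1 and IL1R2 were both the lowest of their group. The difference of ACS from MSC-CM, 4.1-fold, gave p = 0.1 in the exact permutation test (two-sided), or 0.211 after adjustment.

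IL18BP, the soluble inhibitor of IL-18, was at 2589, 2719 and 2373 CPM with PRP and at 1302, 1237 and 1048 CPM with MSC-CM. The lowest PRP library lay far above the highest MSC-CM library, at 2373 against 1302 CPM. The means of 2560 ± 175 and 1196 ± 132 CPM (SD, n = 3) differed 2.14-fold, a log2 fold change of 1.10 (SE 0.207, limma Benjamini-Hochberg adjusted p = 0.00807). On omitting single libraries the value was 1.01 to 1.17, and it no longer passed without MSC-CM replicate 3 (limma adjusted p = 0.0539). MSC-CM and PRP libraries with the same replicate number deviated together, and with the number as a block the value was the same. The call was then lost in the fit of 12 libraries (limma adjusted p = 0.0596) and kept with the MSC-CM and PRP libraries alone (limma adjusted p = 0.0073). The summed macrophage markers were at 2811 to 4841 CPM with PRP and 4985 to 6060 CPM with MSC-CM, and their part in the result was not tested. NUMA1, which overlaps the gene, was at 216 ± 41.7 CPM with MSC-CM and 216 ± 11.6 CPM with PRP.

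Across the other conditions, untreated macrophages had IL18BP at 2104, 1916 and 2836 CPM, ACS at 1577, 1745 and 1886 CPM and IL-1ß at 1125, 1424 and 2137 CPM. MSC-CM lay below all untreated libraries, with a log2 fold change of -0.92 (limma adjusted p = 0.0414) that stayed under the 2-fold threshold (without it, 1.92% of all genes passed there). In the 6 fits that omitted a single library the limma adjusted p was 0.0938 to 0.168. PRP lay above all IL-1ß libraries (log2 fold change 0.76, limma adjusted p = 0.0543), and IL-1ß replicate 3 was the nearest to it. Without that library the value was 1.01 and passed the threshold (limma adjusted p = 0.00367). ACS and IL-1ß overlapped.

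IL18, the ligand, was at its lowest with ACS, at 4.94, 3.71 and 3.97 CPM. IL-1ß libraries were at 8.81, 12.9 and 17.6 CPM, all above ACS, and so were those with MSC-CM (11.3, 7.38 and 12.3 CPM) and the untreated ones (12.6, 11.97 and 6.40 CPM). The mean with ACS was 3.11-fold below that with IL-1ß, a log2 fold change of -1.40 (SE 0.394, limma adjusted p = 0.076). It passed by DESeq2 on recovered reads, without IL-1ß replicate 1 and without the 2 libraries that stood apart. With PRP the gene was at 11.96, 5.36 and 2.92 CPM, again with replicate 1 on the side of the untreated and MSC-CM libraries. Without PRP replicate 1 the log2 fold change of PRP against IL-1ß was -1.45 and passed (limma adjusted p = 0.0263), against -0.99 with all libraries (limma adjusted p = 0.2).

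The IL18BP to IL18 ratio of the PRP and ACS libraries lay above that of all IL-1ß and MSC-CM libraries. It was 128, 111 and 121 with IL-1ß and 115, 168 and 85.4 with MSC-CM, and it was 216, 508 and 812 with PRP and 319, 470 and 475 with ACS. Against IL-1ß the geometric means of PRP and ACS were 3.73-fold and 3.47-fold higher. Untreated libraries, at 166, 160.1 and 443, overlapped with MSC-CM, PRP and ACS and lay above IL-1ß. Each of the separations without overlap gave p = 0.1 in the exact permutation test (two-sided), or 0.211 after adjustment.

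IL18R1, which encodes the ligand-binding chain of the IL-18 receptor and is typical of T and NK cells, passed in no comparison. Its libraries ranged from 9.79 to 22.1 CPM and the 5 means from 12.7 ± 2.83 CPM with IL-1ß to 17.4 ± 4.23 CPM in untreated macrophages, with every pair of conditions overlapping. IL33, an alarmin of epithelial and stromal cells, had a single read in the whole series, in ACS replicate 3. It was at 0 in the other 14 libraries, which allows up to 3 reads per library, and it was not tested.

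**Figure D3:**
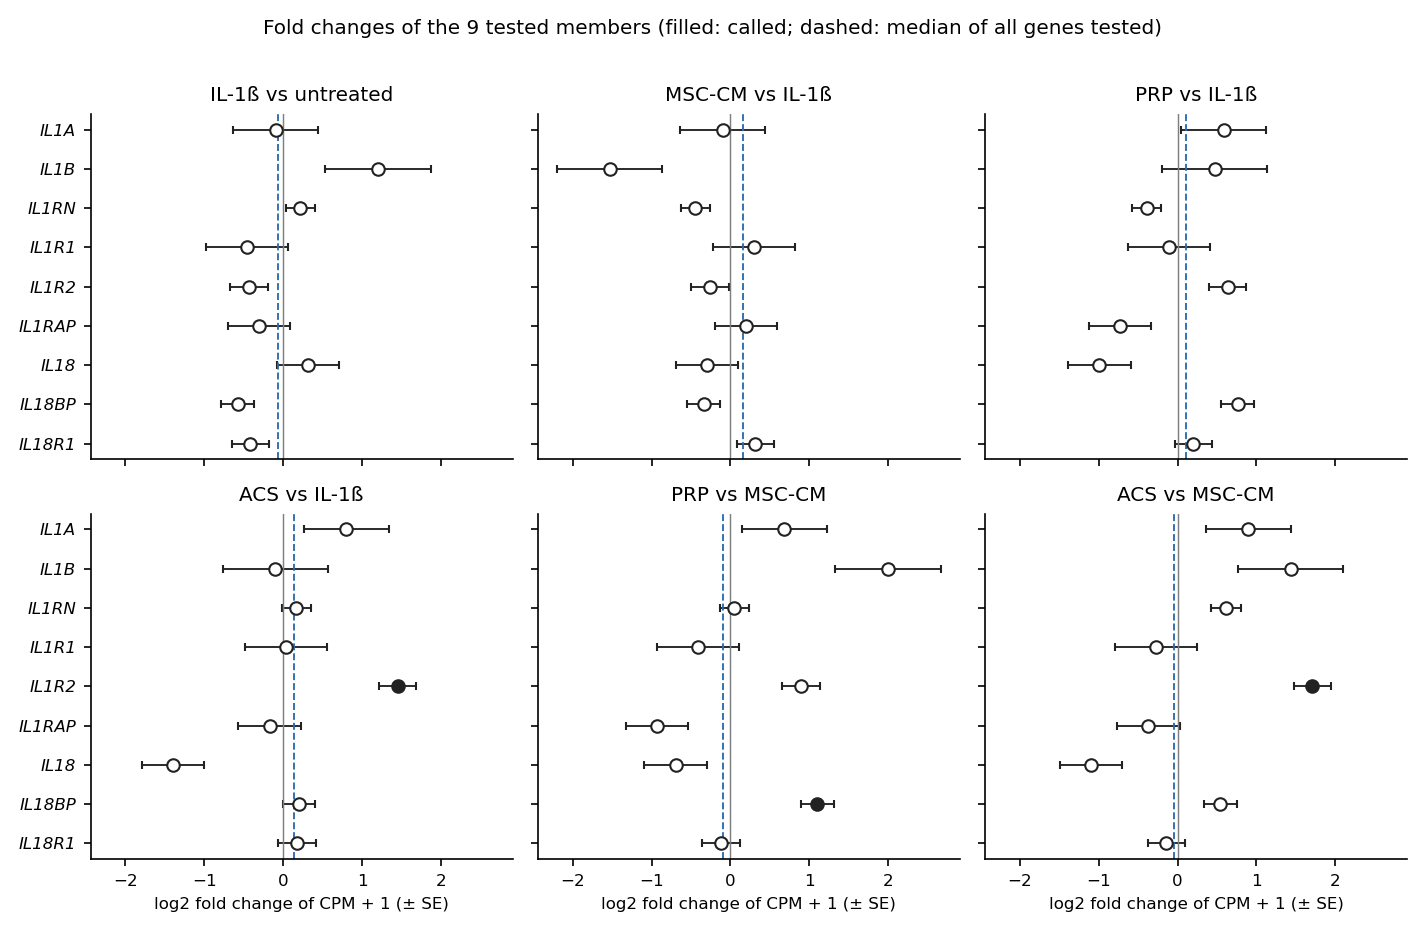
Log2 fold changes of CPM + 1 (points) with their standard errors (whiskers) for the 9 tested genes in 6 comparisons, with filled points for those called and a dashed line at the median of all genes tested. IL1R2 with ACS against IL-1ß (1.45) and against MSC-CM (1.71) and IL18BP with PRP against MSC-CM (1.10) are the filled points.

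Counted over the whole set, the groups did not overlap for 2 of 9 members with IL-1ß against untreated macrophages (background 16.2% of all genes tested), with MSC-CM against IL-1ß (8.79%), with PRP against IL-1ß (15%) and with ACS against IL-1ß (26.2%). There were 3 of 9 with PRP against MSC-CM (19.4%) and with PRP against ACS (15.6%), and 6 of 9 with ACS against MSC-CM (35.1%). Against untreated macrophages there were 2 with MSC-CM (30.8%), 1 with PRP (18.6%) and 7 with ACS (26.3%). In the last of these IL1A, IL1B and IL1R2 lay above and IL1R1, IL1RAP, IL18 and IL18BP below, and none of the 7 was called. The median log2 fold change of the 9 members lay between -0.31, with IL-1ß against untreated macrophages, and 0.54, with ACS against MSC-CM, where 5 members had a value above 0 and 4 below. The medians of all genes were -0.07 and -0.04 there.

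The 2 libraries that stood apart decided several calls. Without IL-1ß replicate 3 and PRP replicate 1, a setting chosen after the data were seen, 5 of 9 members passed with PRP against MSC-CM, where 562 genes of all were called. These were IL1A at 1.21 on the log2 scale, IL1B at 3.09, IL1R2 at 1.15, IL18BP at 1.09 and, in the other direction, IL18 at -1.15. With PRP against IL-1ß 3 members passed, IL1B (1.42), IL18BP (1.00) and IL18 (-1.23), among 513 genes. Against untreated macrophages, PRP had IL1A, IL1B and IL18 called, among 273 genes. IL1RN, IL1R1, IL1RAP and IL18R1 remained without a call in these comparisons.

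**Figure D4:**
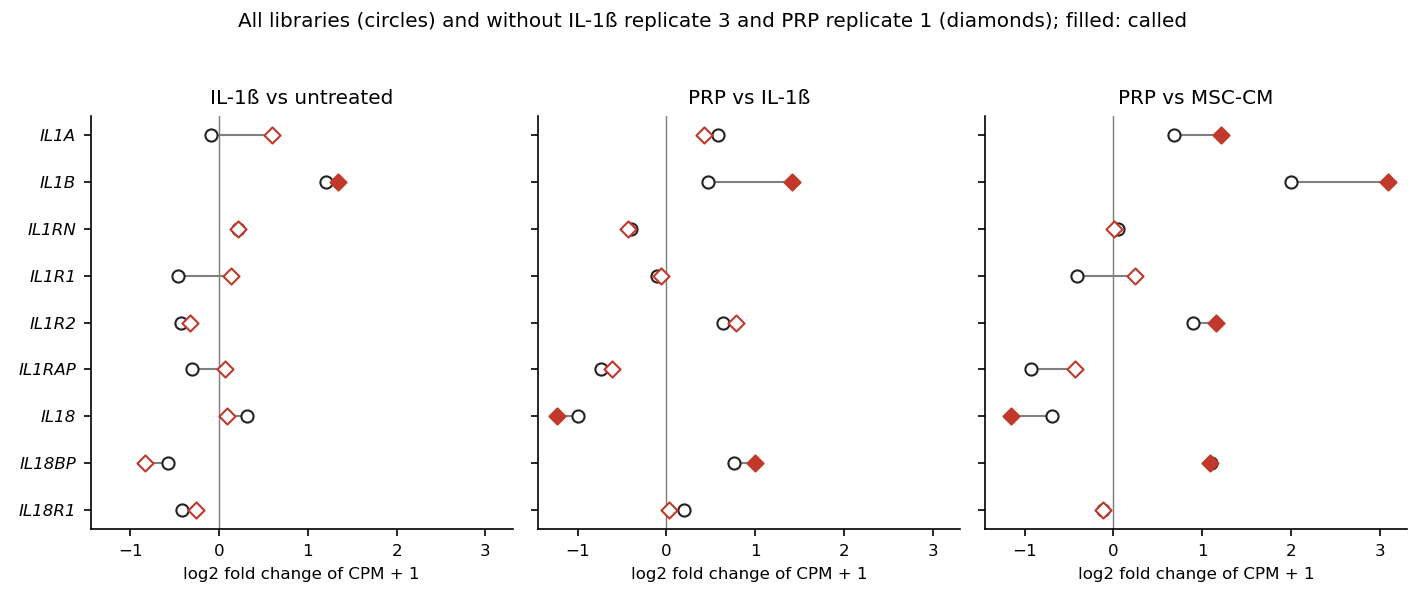
Log2 fold changes of CPM + 1 of the 9 tested genes with all libraries (circles) and without IL-1ß replicate 3 and PRP replicate 1 (diamonds) in 3 comparisons, with filled symbols for those called. IL1B with PRP against MSC-CM moves from 1.998 to 3.09 and IL1B with PRP against IL-1ß from 0.47 to 1.42.

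Among other genes of the family, fixed as a list of 12, 10 were listed and 5 reached the mean of 1 CPM, and none was called in any of the 10 comparisons. Without IL-1ß replicate 3 and PRP replicate 1, 1 of the 5 was called with PRP against untreated macrophages, where 273 of the 11628 genes tested were called. IL36G, an epithelial and macrophage ligand of the IL-36 branch, was at 13.1 ± 8.97 CPM in untreated macrophages, 7.78 ± 1.27 with IL-1ß, 19.6 ± 12.8 with PRP and 21.8 ± 6.49 with ACS (SD, n = 3), with the PRP and ACS libraries above all IL-1ß libraries but overlapping with the untreated range of 7.82 to 23.4 CPM (log2 fold change 1.35 with ACS, limma adjusted p = 0.119). The IL-36 receptor chain IL1RL2 was at 2.30 ± 0.740 CPM in untreated macrophages and 0.693 ± 0.395 CPM with IL-1ß. IL18RAP, the accessory chain of the IL-18 receptor, was at 13.9 ± 2.61 and 23.7 ± 5.20 CPM in the same groups, whose T cell markers summed to 1012 to 1296 and 1325 to 1931 CPM. The IL-33 receptor IL1RL1 was at 3.19 to 6.99 CPM and the inhibitory receptor SIGIRR at 26.1 to 50.4 CPM as group means. IL36A, IL36B, IL37, IL1F10 and IL1RAPL1 were under 1 CPM.

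Of 16 genes that process or release the ligands, 13 were tested, and 2 were called lower with PRP than with IL-1ß and none with IL-1ß against untreated macrophages or with MSC-CM or ACS against IL-1ß. CTSC, a lysosomal protease that activates the granule proteases able to cleave IL-1ß, fell from 2000.5 ± 214 to 425 ± 43.0 CPM (log2 fold change -2.23, limma adjusted p = 3.01e-06). PYCARD, the adaptor that links inflammasome sensors to caspase-1, fell from 60.4 ± 20.7 to 26.4 ± 8.75 CPM (log2 fold change -1.16, limma adjusted p = 0.0204), a call made in 10 of 16 alternatives. The summed macrophage markers were at 4612 to 7210 CPM with IL-1ß and 2811 to 4841 CPM with PRP, and their part in these falls was not tested. The median of the list was -0.78 there, beside 0.11 for all genes. Without IL-1ß replicate 3 and PRP replicate 1 it was -0.51, and 4 of the 13 were called with PRP against IL-1ß, 2 with ACS against IL-1ß and 1 with IL-1ß against untreated macrophages. The calls over all 11628 genes were 513, 306 and 91 in that setting, in place of 359, 257 and 34. Of 19 genes that carry the signal from the receptor, 18 were tested and none was called in any of the 10 comparisons. Their median log2 fold change was -0.40 with IL-1ß against untreated macrophages, beside -0.07 for all genes. Against IL-1ß it was 0.32 with MSC-CM (all genes 0.16), 0.30 with PRP (0.11) and 0.49 with ACS (0.13), and these 4 comparisons share the IL-1ß libraries. Without IL-1ß replicate 3 and PRP replicate 1 the 4 medians were 0.03, 0.04, 0.15 and 0.12, and 1 gene was called, with PRP.

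Of 20 genes known to be induced by IL-1 in many cells 17 were tested. With IL-1ß against untreated macrophages 1 was called higher, CEBPD, a transcription factor of the acute phase response, at 47.4 ± 4.19 against 9.14 ± 1.04 CPM (log2 fold change 2.26, limma adjusted p = 0.000228). That call was lost with only the 2 groups in the model. With PRP against IL-1ß, where 124 of all genes were called higher and 235 lower, 1 was called higher and 5 lower, among them CEBPD (-2.67, limma adjusted p = 9.87e-06), the collagenase MMP1 (-1.66, limma adjusted p = 0.00242) and the mitochondrial superoxide dismutase SOD2 (-1.48, limma adjusted p = 0.00849). MMP1 and SOD2 lost the call with only the 2 groups in the model, and SOD2 also with the replicate block of 12 libraries. With ACS against IL-1ß, where 143 of all genes were called higher and 114 lower, 1 was called higher and 2 lower. The first was the adhesion molecule ICAM1 (1.01, limma adjusted p = 0.00222), and the others included CEBPD (-2.40, limma adjusted p = 7.72e-05). ICAM1 was at 1081 ± 127 CPM in untreated macrophages, 728 ± 75.3 CPM with IL-1ß and 1470 ± 162 CPM with ACS. The ICAM1 change lay close to the 2-fold threshold and was lost in 8 of 15 alternatives. Of the 17, 10 had a value above 0 and 7 below with PRP against IL-1ß (median 0.30, beside 0.11 for all genes). With ACS against IL-1ß 11 lay above 0 and 6 below (median 0.19, beside 0.13). With MSC-CM against IL-1ß none was called. There 13 of the 17 had a value below 0 (median -0.21, beside 0.16 for all genes), and 16 without the 2 libraries that stood apart (median -0.27, beside 0.05). Without the 2 libraries that stood apart 3 were called with IL-1ß against untreated macrophages, 7 with PRP, 2 with ACS and 0 with MSC-CM, each of the last 3 against IL-1ß. Over all genes, 91, 513, 306 and 0 were called there.

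**Figure D5:**
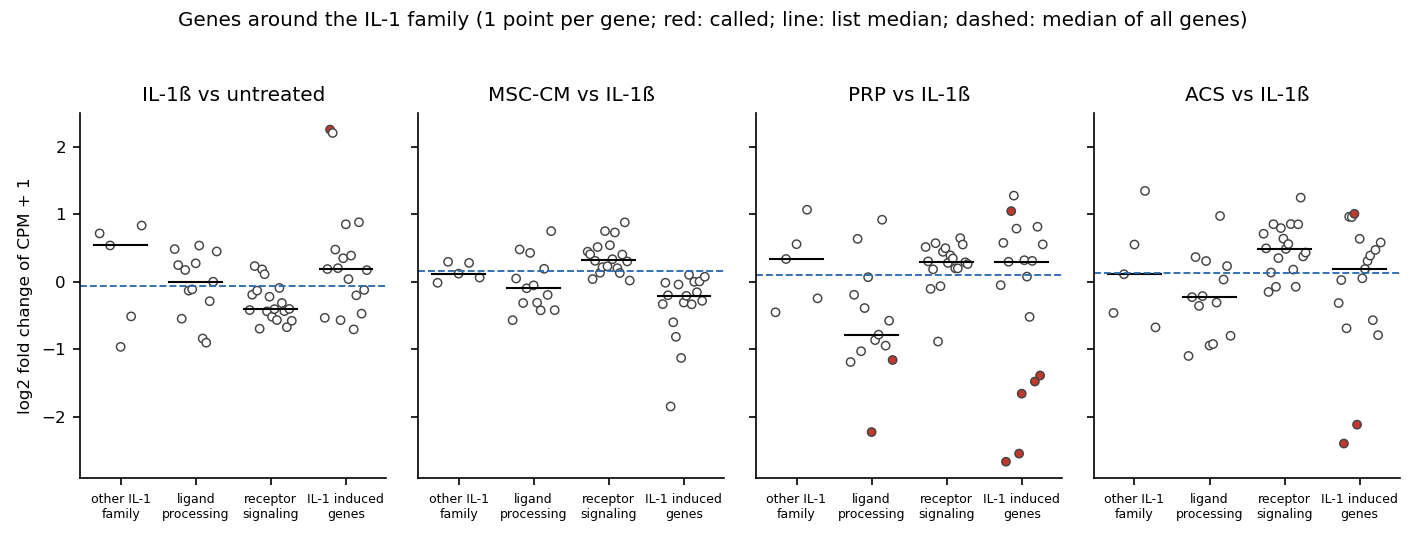
Log2 fold changes of CPM + 1 of each tested gene (points) in 4 lists of genes around the IL-1 family, in 4 comparisons, with red points for those called, a bar at the list median and a dashed line at the median of all genes tested. The list of receptor signaling genes has no red point, and 5 of the IL-1 induced genes are called lower with PRP.

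The genes whose log2 levels tracked each member most closely over the 15 libraries differed between members. For IL1B they were IL31 (Pearson's r = 0.933), CXCL6 (0.92) and CSF3 (0.916), all 3 of them cytokine or chemokine genes. For IL1R2 they were the growth factor gene HBEGF (0.93), NRN1 (0.929) and PRR16 (0.922). IL18 was closest to RNPEPL1 (0.906), GRINA (0.891) and ACP5 (0.886), and IL18BP to TRIP10 (0.964), BORCS6 (0.946) and GGA1 (0.937). IL1A, IL1R1 and IL1RAP were closest to PDLIM5 (0.939), EHD4 (0.95) and CTNNA1 (0.958). IL1RN and IL18R1 had no neighbour this close, with TBC1D22A (0.75) and ADHFE1 (0.785) as their nearest. These values describe libraries that share conditions, library quality and depth, and they include the 2 libraries that stood apart.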

How the data were processed

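Poly(A) RNA of 15 macrophage cultures, 3 in each of 5 conditions, had been sequenced in paired reads. The authors trimmed the reads by quality, removed adapters with cutadapt, aligned them with STAR 2.7.3 to EquCab3.0 with Ensembl annotation, counted them with HTSeq and deposited CPM for 16932 genes. The strand setting and any filter on genes are not given in the sources used here. All 15 columns were matched to samples by name, with 0 left over. Listed values sum to 982495 to 991421 CPM per library.

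The 11628 genes (68.7%) whose mean reached 1 CPM were tested with limma 3.58.1 on log2(CPM + 1) with an intensity trend, in a single model of 5 conditions without pairing. The adjustment was Benjamini-Hochberg within a comparison, and a call needed an adjusted p of at most 0.05 and at least 2-fold. A log2 fold change on this scale understates that of genes with few CPM. The smallest step between values of a library gave whole reads (99.5% of values within 0.05 of a whole number), which were used for edgeR 4.0.16 and DESeq2 1.42.0 as alternatives. R 4.3.3, Python 3.11.15 and matplotlib 3.10.9 were used. The steps were first tested on simulated libraries with known changes.

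Same-numbered MSC-CM and PRP libraries deviated together from their group means (r = 0.635, 0.255 and 0.419 for numbers 1, 2 and 3), so for these 2 groups fits with the number as a block were run as well, and their value is given where it changed a call. The pairing is taken from the data, since the labels do not say what the number stands for. In each other pair of numbered groups at least 1 correlation was negative, and ACS labels carry no number. The replicate numbers used here for ACS follow the order of the columns and imply no match with same-numbered libraries. No 2 libraries of a group were identical.

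The genes, the lists around them and the tests were chosen with earlier results of these data known. All 10 members are named, with, from each list, the 4 genes with the smallest adjusted p among those called in the comparisons of IL-1ß with untreated macrophages and of each OT with IL-1ß, each listed gene of the family list, and, of the 3 closest genes by Pearson's r per member, all 3 for IL1B, IL1R2, IL18 and IL18BP and the closest for the others. Names of other genes were added only for the cell type markers and for NUMA1. Sequences were not used here.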

Additional observations from a re-analysis of the deposited data

How the results depend on the processing

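The 3 calls kept their direction in every alternative run. The number of members called out of 9 moved as follows. With edgeR on recovered reads it was 3 for PRP against MSC-CM (IL1B, IL1R2 and IL18BP). With DESeq2, which called more genes of all than limma, it was 3 there (488 genes of 13316), 2 for ACS against IL-1ß (574 of 14300), 1 for MSC-CM against untreated (171 of 12333) and 1 for PRP against untreated (320 of 13316). With only the 2 groups compared in the model it was 0 for ACS against IL-1ß, 3 for ACS against MSC-CM and 3 for ACS against untreated. Without a fold threshold it was 1 for MSC-CM against untreated. With the replicate block of 12 libraries it was 0 for PRP against MSC-CM, and this block changed no other call of a member. With the block in the MSC-CM and PRP libraries alone it was 1 (IL18BP), as without a block. No paired analysis was possible for comparisons with ACS because ACS labels carry no replicate number. Without the 2 libraries that stood apart, chosen after seeing the data, it was 1 for IL-1ß against untreated, 3 for PRP against IL-1ß, 2 for ACS against IL-1ß, 5 for PRP against MSC-CM, 1 for PRP against ACS and 3 for PRP against untreated, among 91, 513, 306, 562, 50 and 273 genes of all in place of 34, 359, 257, 304, 11 and 186. With each library left out in turn it was 1 to 2 for ACS against IL-1ß (2 without IL-1ß replicate 1, where 705 of all genes were called in place of 257), 0 to 2 for PRP against IL-1ß (1 without IL-1ß replicate 3, among 410 genes, and 2 without PRP replicate 1, among 469), 0 to 3 for PRP against MSC-CM (0 without MSC-CM replicate 3, among 171, and 3 without PRP replicate 1, among 398) and 0 to 1 for PRP against untreated (1 without PRP replicate 1, among 154). IL1B turned its direction when 1 library was left out, with PRP against IL-1ß (-0.12 to 1.56) and PRP against ACS (-0.0216 to 1.66), and with ACS against IL-1ß, where the groups overlapped and no setting called it (-0.4 to 0.125). Other members turned as well where groups overlapped and no setting called them. Among these were IL1A with IL-1ß against untreated (-0.617 to 0.6) and IL1R1 with ACS against IL-1ß (-0.568 to 0.417). Over all genes, DESeq2 called 2 with MSC-CM against IL-1ß and 694 with PRP against IL-1ß, where limma called 0 and 359. At an unadjusted p of at most 0.05 and 2-fold, limma had 42 genes in the first of these. With only the 2 groups in the model, ACS against IL-1ß had 48 genes in place of 257, ACS against MSC-CM 323 in place of 143 and ACS against untreated 130 in place of 43. With the replicate block of 12 libraries, PRP against MSC-CM had 171 in place of 304, and with the block in these 2 groups alone it had 406. RLE scaling moved the all-gene median, on the log2 scale, from 0.162 to 0.00202 with MSC-CM against IL-1ß and from 0.132 to 0.0173 with ACS against IL-1ß, and under neither RLE nor TMM scaling did one of the 39 pairs below turn direction or change its call. The cause of these shifts was not tested. Among the 39 pairs of member and comparison that were called in any setting or did not overlap, 557 of 596 alternative values kept direction and call, 33 gained a call, 3 lost it and 3 turned. With 3 libraries per group, a single one could decide a count.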
